A study of Mus musculus with 18 samples.

Results

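Adaptaquin at 1 µM was compared with the lower doses, 0 and 0.1 µM, in cultured neurons of the mouse whose RNA had been hybridised to 17 bead arrays. The groups were set by the dose and treatment labels alone. The 1 µM side held all 6 arrays at that dose, 3 with homocysteic acid (HCA) and 3 without it. The lower side held 11 arrays, 5 with HCA (2 at 0 µM and 3 at 0.1 µM) and 6 without HCA (3 at 0 µM and 3 at 0.1 µM). These were 6 and 11 of the 18 arrays in the series, and the remaining array, the third with HCA alone, was titled as an outlier and was left out. One coefficient for 1 µM was fitted with HCA status and replicate number as covariates, which tests a change pooled over the HCA states. A change mainly in 1 state can pass it, so each state was also fitted apart to look for common changes. The labels name the cells only as cultured neurons and do not say that replicates were separate cultures, so the p-values cover only the variation among these samples, and that variation may be technical.

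Adaptaquin inhibits the HIF prolyl hydroxylases, iron-dependent enzymes that use oxygen to mark the transcription factor HIF for destruction. HCA is a glutamate analogue that blocks cystine uptake and thereby depletes glutathione. Transcription factors that respond to such stress include ATF4, which induces genes of amino acid transport and synthesis, NRF2, which induces antioxidant enzymes, and p53, which induces genes of cell cycle arrest and cell death.

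The upper quartile of probe intensity was 333 to 506 on the arrays at 1 µM and 346 to 563 on those at the lower doses, and 42.8% to 46.6% and 43.7% to 47.6% of probes were detected. On the array left out these values were 241 and 40.9%. Of 13 neuron markers that passed the filter on dim probes, all 13 were detected on all 17 arrays, among them Map2, Rbfox3 and Dcx, while Nefl, Nefh and Snap25 did not pass it. Glial genes were present too: 12 astrocyte and radial glia markers and 8 microglia markers were tested, 7 and 6 of them detected on all 17 arrays. Gfap, the astrocyte filament gene, was detected on 1 of 6 arrays at 1 µM and on 2 of 11 at the lower doses. In RNA from mixed cultures, fewer cells of a type and less RNA per cell cannot be told apart.

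Across 8922 genes, 56 differed between 1 µM and the lower doses, which is 0.628% of those tested (limma, Benjamini-Hochberg adjusted p under 0.05). Of these, 30 rose (0.336%) and 26 fell (0.291%). Of the rises 10 were listed targets of p53, and of the falls 5 were listed targets of ATF4. A change was counted as common when it passed in the pooled fit, ran the same way in both HCA states and had an unadjusted p under 0.05 in a separate fit of each state. By this rule 51 genes were common, or 0.572% of all genes, 28 of them higher (0.314%) and 23 lower (0.258%). The separate fits use the arrays of the pooled fit, so genes called there tend to meet the rule and the count is no independent support. On its own the fit with HCA called 0 genes. The called genes that were not common were the rises Zmat3 and Abhd4 and the falls Arrdc4, Socs2 and Ntng1. Without the replicate numbers in the fit, 18 genes passed, 14 higher and 4 lower. The count also fell to 25, 29 and 36 without 1 µM replicates 1, 2 and 3 without HCA, to 36 and 37 without 1 µM replicates 1 and 3 with HCA, and to 37 without the 0.1 µM replicate 3 without HCA. With any 1 array left out, 15 to 30 of the 30 rises but only 9 to 20 of the 26 falls were still called.

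Promoters are shown for some of the called genes, picked because their window held the element that p53 or ATF4 binds. A window of 250 bases before to 50 bases after the gene start was taken from RefSeq (GRCm38.p6), and 24 of the 30 rises and 21 of the 26 falls had one there. The p53 decamer, the unit that is repeated in a full p53 response element, was searched by its standard degenerate letters on both strands. It was present for 8 of the 24 rises with a window (33.3%) and 3 of the 21 falls (14.3%), against 8.35% of 7273 tested genes. A gene was counted when any of its promoters held the letters, so genes with several promoters had more chances. The 8 rises were Abhd4, Ccng1, Cdkn1a, Ddit4l, Gtse1, Mapkapk3, Polk and Urah. Of these, Ccng1, Cdkn1a, Gtse1 and Polk were listed targets of p53 and the others were not. The listed target Fas rose and had a window without the decamer. Phlda3, Zmat3, Pidd1, Pmaip1 and Trp53inp1, listed targets that rose too, had no window or one without it. Of the 2 promoters of Cdkn1a, 1 held it. Mapkapk3 and Urah passed the filter on dim probes only through arrays at 1 µM. In the first 3 sequences capitals mark the p53 decamer, which lies at positions -73 and -51 from the gene start in Cdkn1a (chr17:29090729-29091028, plus strand, 1 of 2 promoters of the gene in RefSeq), at -185 in Ccng1 (chr11:40755237-40755536, minus strand) and at -90 in Ddit4l (chr3:137623422-137623721, plus strand), counted at its first base.
Cdkn1a: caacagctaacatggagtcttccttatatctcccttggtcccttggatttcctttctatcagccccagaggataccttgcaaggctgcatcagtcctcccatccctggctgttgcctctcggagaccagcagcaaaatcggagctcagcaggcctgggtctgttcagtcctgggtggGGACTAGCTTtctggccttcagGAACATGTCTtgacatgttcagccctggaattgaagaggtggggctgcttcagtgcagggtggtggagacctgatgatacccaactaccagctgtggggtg
Ccng1: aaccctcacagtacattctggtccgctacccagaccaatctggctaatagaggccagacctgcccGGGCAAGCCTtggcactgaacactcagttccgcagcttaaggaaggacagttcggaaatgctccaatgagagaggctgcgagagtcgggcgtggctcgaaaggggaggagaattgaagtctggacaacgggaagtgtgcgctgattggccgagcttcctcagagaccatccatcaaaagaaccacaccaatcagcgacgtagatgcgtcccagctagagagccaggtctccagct
Ddit4l: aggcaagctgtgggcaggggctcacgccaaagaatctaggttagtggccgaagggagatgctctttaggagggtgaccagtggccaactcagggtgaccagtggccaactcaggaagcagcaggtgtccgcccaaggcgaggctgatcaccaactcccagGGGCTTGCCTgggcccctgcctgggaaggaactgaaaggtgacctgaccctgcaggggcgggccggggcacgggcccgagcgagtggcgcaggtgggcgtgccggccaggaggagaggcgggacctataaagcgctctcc

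The amino acid response element bound by ATF4 was searched as TGATGNAAN on both strands and counted by gene in the same way. It was present for 4 of 21 falls (19.0%), 1 of 24 rises (4.17%) and 2.83% of tested genes with a window. The 4 falls were Chac1, Ntng1, Serpinf1 and Slc7a11, and the rise was Polk. Chac1 and Slc7a11 were listed targets of ATF4, and Ntng1 and Serpinf1 were not. The listed target Shmt2 fell and had a window without the element. Mthfd2 and Slc7a3, listed targets that fell too, had no window or one without it. Capitals mark this element at -66 and -48 in Slc7a11 (chr3:50443564-50443863, minus strand), where 1 copy reads on each strand, and at -194 in Chac1 (chr2:119350992-119351291, plus strand).
Slc7a11: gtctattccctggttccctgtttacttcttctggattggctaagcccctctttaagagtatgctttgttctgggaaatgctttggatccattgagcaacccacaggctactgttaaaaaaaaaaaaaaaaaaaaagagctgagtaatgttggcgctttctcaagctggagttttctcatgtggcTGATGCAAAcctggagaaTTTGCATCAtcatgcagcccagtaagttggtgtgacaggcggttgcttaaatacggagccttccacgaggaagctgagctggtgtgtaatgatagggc
Chac1: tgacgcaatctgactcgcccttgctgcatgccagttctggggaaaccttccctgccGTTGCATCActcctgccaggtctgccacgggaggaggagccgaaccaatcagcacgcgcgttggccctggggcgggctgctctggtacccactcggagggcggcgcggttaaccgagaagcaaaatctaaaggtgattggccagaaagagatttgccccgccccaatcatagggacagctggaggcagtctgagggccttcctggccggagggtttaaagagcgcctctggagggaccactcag

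Of 12 matches of the p53 decamer and 6 of the amino acid response element in promoters of called genes, 0 overlapped another motif searched. The HIF core, ACGTG or GCGTG on both strands, was present for 66.7% of rises, 66.7% of falls and 68.3% of tested genes with a window. The antioxidant element TGACNNNGC was in 20.8%, 19.0% and 16.7%. These matches describe the letters in the window and are no evidence of binding.

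Of the p53 targets of cell cycle arrest, 4 rose. Cdkn1a encodes p21, an inhibitor of cyclin-dependent kinases. Its log2 intensity with HCA was 10.41, 10.48 and 9.99 at 1 µM, against 9.79 and 9.71 at 0 µM and 9.95, 9.88 and 9.51 at 0.1 µM. Without HCA it was 10.75, 10.75 and 10.17 at 1 µM, while the 6 lower-dose arrays had a low of 8.72, a median of 9.08 and a high of 9.30. The groups did not overlap in either state, although the array of replicate 3 was the lowest of its 1 µM group in both. Cdkn1a rose by 1.07 ± 0.13 (SE; log2, 2.10-fold, adjusted p = 4.96e-04), and both of its other probes were higher, by 1.02 and 0.92.

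Ccng1, the cyclin G1 gene, rose by 0.84 ± 0.11 (1.79-fold, adjusted p = 7.41e-04). At 1 µM it had 10.92, 10.96 and 10.65 with HCA and 11.11, 11.55 and 10.94 without it. The lower doses had 9.96 to 10.67 with HCA and 9.95 to 10.22 without it, so that 1 lower-dose array with HCA reached into the 1 µM range. Gtse1, a microtubule-binding protein gene that acts back on p53, rose by 0.51 ± 0.066 (adjusted p = 7.41e-04). Zmat3, an RNA-binding zinc finger gene, rose by 0.38 ± 0.074 (adjusted p = 0.0272). Of the 7 tested genes of this list, these 4 rose and 0 fell, and the median change was 0.38. Plk2, Plk3 and Gadd45a had values of -0.0066, 0.022 and -0.14.

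Of 10 tested p53 targets of apoptosis and survival signalling, 5 rose. Phlda3, whose product inhibits the survival kinase Akt, had 8.67, 8.74 and 8.27 at 1 µM with HCA, against 7.70 and 7.91 at 0 µM and 8.06, 7.88 and 7.51 at 0.1 µM. Without HCA it had 9.09, 9.26 and 8.54 at 1 µM, and the lower doses had 7.35, 7.51 and 7.62 as lowest, median and highest. Every 1 µM array lay above every lower-dose array. Phlda3 rose by 1.14 ± 0.11 (2.21-fold, adjusted p = 5.6e-05), and its other probe was higher by 1.17.

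The death receptor gene Fas rose by 0.92 ± 0.10 (adjusted p = 2.0e-04), with 6.09, 6.53 and 7.11 as lowest, median and highest at 1 µM and 4.74, 5.79 and 6.22 at the lower doses. It was detected on all 6 arrays at 1 µM and on 6 of 11 at the lower doses. Pidd1, the scaffold of a complex that activates caspase-2, rose by 0.72 ± 0.13 (adjusted p = 0.0187). Pmaip1, which encodes the BH3-only protein Noxa, rose by 0.60 ± 0.12 (adjusted p = 0.0294) and was detected on 4 of 6 and 3 of 11 arrays. The stress protein gene Trp53inp1 rose by 0.36 ± 0.068 (adjusted p = 0.0203). Of this list 0 fell, 10 of 10 values were above 0, against 49.9% of all genes, and the median was 0.44. The members that did not pass included the exonuclease gene Aen (0.53 ± 0.13, adjusted p = 0.0836) and Bbc3, the gene of the BH3-only protein Puma (0.24 ± 0.074, adjusted p = 0.259).

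In the list of DNA repair, antioxidant and metabolic targets of p53, 1 of 7 tested genes rose. It was Polk, a DNA polymerase that copies past damaged bases (0.47 ± 0.084, adjusted p = 0.0157). The repair genes Ddb2, Xpc and Ercc5 had values of 0.038, -0.046 and 0.063. Over the 3 lists together 10 of 24 tested p53 targets rose, 0 fell and 20 of 24 values were above 0, with a median of 0.29. Over all 8922 genes the median was -0.00028. Among 5 regulators of p53 0 were called, and Mdm2, the ubiquitin ligase gene that p53 itself induces, had a value of 0.14 ± 0.055 (adjusted p = 0.426). Perp, Btg2 and Eda2r did not pass the filter on dim probes, and Bax and the p53 gene Trp53 were not analysed here. Of the 10 that rose, Phlda3, Cdkn1a, Ccng1 and Pidd1 passed without the replicate numbers too. The p53 lists were written with earlier results of these arrays known, so their counts are not independent evidence of the direction.

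**Figure D1:**
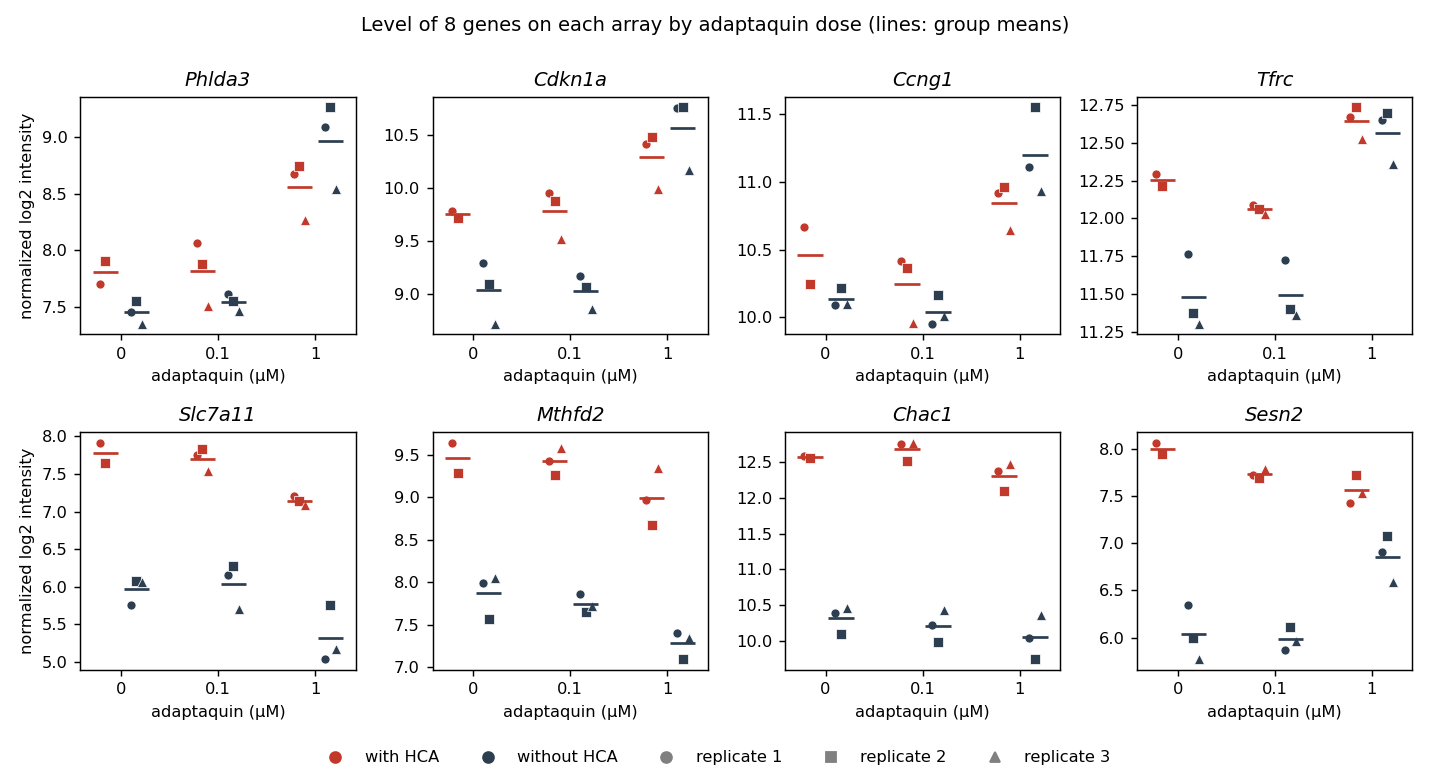
Normalized log2 intensity of 8 genes on each array, by adaptaquin dose in µM. Points are arrays, their shapes are replicate numbers, red is with HCA and dark is without HCA, and lines are group means. The group means of Cdkn1a, Phlda3, Ccng1 and Tfrc are highest at 1 µM in both HCA states, those of Slc7a11, Mthfd2 and Chac1 are lowest there, and the mean of Sesn2 at 1 µM is the highest of the doses without HCA and the lowest with HCA.

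Several of the largest rises lay outside the p53 lists. Those lists hold 29 genes and not every target of p53, so absence from them does not place a gene outside the p53 response. Pqlc3, which encodes a membrane protein with PQ-loop repeats, had 7.16, 7.19 and 6.75 at 1 µM with HCA, against 5.93 to 6.53 at the lower doses. Without HCA it had 7.31, 7.92 and 6.999 at 1 µM, against 5.54, 5.80 and 6.31 as lowest, median and highest at the lower doses. The groups did not overlap, and Pqlc3 had the largest pooled rise, 1.18 ± 0.13 (2.27-fold, adjusted p = 1.78e-04). Its 2 other probes were higher by 0.65 and 0.67.

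Ddit4l, an inhibitor of mTORC1 signalling, rose by 1.04 ± 0.12 (2.06-fold, adjusted p = 3.59e-04). It had 8.48, 8.54 and 8.26 with HCA and 8.92, 9.54 and 8.83 without HCA at 1 µM, and 7.41 to 8.02 over the 11 lower-dose arrays. Dcxr, a reductase of dicarbonyls and sugars, rose by 0.96 ± 0.10 (adjusted p = 1.78e-04). Ephx1, the microsomal epoxide hydrolase gene and an NRF2 target, rose by 0.93 ± 0.13 (adjusted p = 0.00178), with 2 lower-dose arrays with HCA above the lowest 1 µM array. Psrc1, a microtubule-associated protein gene, rose by 0.66 ± 0.059 (adjusted p = 3.86e-05). The thiamine transporter gene Slc19a2 rose by 0.63 ± 0.088 (adjusted p = 0.00152).

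Cox6b2, an isoform of a cytochrome oxidase subunit known from testis, rose by 0.68 ± 0.12 (adjusted p = 0.0169) and was the 1 riser of 28 respiratory chain genes, whose median was -0.0043. It was detected on all 6 arrays at 1 µM and on 5 of 11 at the lower doses. Mapkapk3, a kinase gene of the p38 pathway, averaged 5.54 ± 0.29 at 1 µM and 4.74 ± 0.094 at the lower doses (SD, n = 6 and 11, adjusted p = 3.86e-05). It was not well above background on any lower-dose array and was detected on 3 of 6 at 1 µM, and no fold is given because the bound is under 1. It passed the filter on dim probes only through the 1 µM arrays, where it is high, so its call is not independent of the filter. The same holds for Urah, a gene of urate breakdown, which averaged 5.52 ± 0.23 and 5.11 ± 0.17 (adjusted p = 0.0249) and was detected on 2 and 0 arrays.

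Iron uptake was represented by a single gene. Tfrc encodes the transferrin receptor, and low iron is known to lengthen the life of its mRNA. Tfrc had 12.67, 12.73 and 12.53 at 1 µM with HCA, against 12.29 and 12.21 at 0 µM and 12.09, 12.07 and 12.03 at 0.1 µM. Without HCA it had 12.65, 12.69 and 12.36 at 1 µM, against 11.30, 11.39 and 11.77 as lowest, median and highest at the lower doses. The groups did not overlap in either state, and the 6 arrays at 1 µM spanned 12.36 to 12.73 over both. Tfrc rose by 0.82 ± 0.089 (1.76-fold, adjusted p = 1.78e-04), and its other probe gave 0.82.

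Of 15 tested genes of iron uptake, storage and sensing, Tfrc was the 1 that rose, 0 fell, and the median was 0.0090. The divalent metal transporter gene Slc11a2 had a value of 0.21 ± 0.070 (adjusted p = 0.314), the ferritin heavy chain gene Fth1 -0.034, and the iron regulatory protein genes Aco1 and Ireb2 0.019 and -0.12. Of 10 genes of haem synthesis and breakdown 0 were called, with a median of 0.044. Hmox1, the inducible haem oxygenase gene, had a value of 0.28 ± 0.13 (adjusted p = 0.528).

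The HIF pathway, the known target of the compound, had 1 called gene among the lists of its genes. Ndrg1, which is induced by HIF and by iron chelation in human cells, rose by 0.27 ± 0.054 (1.21-fold, adjusted p = 0.0294). It had 9.54 to 9.71 at 1 µM and 9.26 to 9.53 at the lower doses with HCA, and 10.07 to 10.18 and 9.64 to 9.97 without HCA, with no overlap in either state. Ndrg1 was higher by 0.19 against 0 µM alone, which did not pass (limma, adjusted p = 0.347). Against 0.1 µM alone it was higher by 0.33 (limma, adjusted p = 0.0086). Its pooled call was lost in 10 of 17 runs with 1 array left out and without the replicate numbers (limma, adjusted p = 0.0715). Of 20 HIF targets of glycolysis 0 were called (median 0.030), and of 16 other HIF targets Ndrg1 was the 1 that rose (median -0.024). Vegfa, a growth factor gene for vessels, had a value of -0.13 ± 0.064 (adjusted p = 0.555), and the lactate dehydrogenase gene Ldha had -0.019. Of 9 genes of the prolyl hydroxylases and HIF factors 0 were called, and Egln1, Egln2 and Egln3, which encode the enzymes the compound inhibits, had values of -0.075, 0.050 and -0.030. The HIF targets Bnip3, Car9, Adm and Pfkfb3 did not pass the filter on dim probes. The HIF lists do not hold every HIF target, so absence from them, as for Tfrc, does not place a gene outside the HIF response.

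Of 37 tested targets of ATF4 and CHOP, 5 fell at 1 µM. Slc7a11 encodes the cystine and glutamate exchanger that HCA blocks. It had 7.21, 7.14 and 7.09 at 1 µM with HCA, against 7.91 and 7.64 at 0 µM and 7.75, 7.83 and 7.53 at 0.1 µM. Without HCA it had 5.04, 5.76 and 5.17 at 1 µM, against 5.71, 6.07 and 6.27 as lowest, median and highest at the lower doses. The groups were separate with HCA, whereas without it 1 of the 3 arrays at 1 µM reached the lower-dose range and 1 of the 3 was detected. Slc7a11 fell by 0.62 ± 0.094 (0.649-fold, adjusted p = 0.00345).

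Mthfd2, an enzyme gene of mitochondrial folate metabolism, fell by 0.50 ± 0.063 (0.708-fold, adjusted p = 6.65e-04). It had 8.97, 8.67 and 9.34 with HCA and 7.40, 7.10 and 7.35 without HCA at 1 µM, against 9.26 to 9.64 and 7.56 to 8.05 at the lower doses. The groups were separate without HCA, and with HCA 1 array at 1 µM reached the lower-dose range. Slc7a3, a transporter gene of cationic amino acids, fell by 0.46 ± 0.086 (adjusted p = 0.0187). Chac1, whose product breaks down glutathione, had 12.37, 12.10 and 12.47 at 1 µM with HCA, against 12.52 to 12.77 at the lower doses. Without HCA it had 10.04, 9.75 and 10.36 at 1 µM, against 9.98 to 10.46, and the groups overlapped. Chac1 fell by 0.29 ± 0.051 (adjusted p = 0.0169). Shmt2, the mitochondrial serine hydroxymethyltransferase gene, fell by 0.25 ± 0.051 (adjusted p = 0.0303).

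Of this list 0 rose, and the median of the 37 was -0.17. Without the replicate numbers in the fit Slc7a11 was the 1 of the 5 that passed. Values were below 0 for 32 of 37, against 50.1% of all genes, and this was 34 of 37 with HCA and 27 of 37 without it. Such a lean was not particular to this list. In the pooled fit values were below 0 for 11 of 13 neuron markers and 10 of 12 astrocyte and radial glia markers. They were below 0 for 11 of 13 genes of endoplasmic reticulum chaperones and degradation, but for 3 of 17 cholesterol synthesis genes. The chromatin protein gene Nupr1 had the most negative value, -0.65 ± 0.15, and did not pass (adjusted p = 0.0588), nor did the amino acid transporter gene Slc7a5 (-0.23 ± 0.050, adjusted p = 0.0522) and the translational repressor gene Eif4ebp1 (-0.35 ± 0.084, adjusted p = 0.0929). Atf4 and Ddit3, the genes of ATF4 and CHOP, had values of -0.19 ± 0.11 (adjusted p = 0.641) and -0.081 ± 0.079 (adjusted p = 0.829). Trib3 was not well above background on any array at 1 µM. This list too was written with earlier results of these arrays known. Of 25 NRF2 targets Ephx1 rose and Slc7a11 fell, with a median of -0.017, and the quinone reductase gene Nqo1 had a value of -0.21 ± 0.11 (adjusted p = 0.609).

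Other falls included genes of neuronal signalling and of the extracellular matrix. Kcnj2, an inward rectifier potassium channel gene, averaged 4.93 ± 0.29 at 1 µM and 5.66 ± 0.22 at the lower doses (SD, n = 6 and 11, adjusted p = 0.0103). It was not well above background on any array at 1 µM and was detected on 6 of 11 at the lower doses, and no fold is given because the bound is under 1. It passed the filter on dim probes only through the lower-dose arrays, where it is high, so its call is not independent of the filter. Dcn, the gene of the matrix proteoglycan decorin, had 5.55, 6.16 and 6.56 as lowest, median and highest at 1 µM and 6.28, 6.79 and 7.19 at the lower doses, with no overlap within either HCA state. It fell by 0.64 ± 0.083 (adjusted p = 7.56e-04), whereas its other probe gave -0.20. Pdyn, the precursor gene of the dynorphin opioid peptides, fell by 0.49 ± 0.091 (adjusted p = 0.0187), and its other probe gave -0.045.

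Ldoc1 fell by 0.57 ± 0.074 (adjusted p = 7.56e-04) and was detected on 3 of 6 and 11 of 11 arrays. Txnip, the gene of a thioredoxin-binding arrestin-like protein, fell by 0.40 ± 0.080 (adjusted p = 0.0294), and its relative Arrdc4 fell by 0.34 ± 0.061 (adjusted p = 0.0181). Grb14, an adaptor gene that dampens insulin receptor signalling, fell by 0.41 ± 0.076, the growth factor gene Gdf10 by 0.35 ± 0.057, and Serpinf1, the gene of a secreted neurotrophic serpin, by 0.29 ± 0.057. Among 23 cell cycle and DNA replication genes 1 fell, the mitotic kinase gene Plk1 (by 0.26 ± 0.052, adjusted p = 0.0331). The median of that list was -0.078, and 14 of 23 values with HCA and 22 of 23 without HCA were below 0.

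Marker lists of other cell types were read beside these results. Dcn is also on the list of 5 tested vessel and fibroblast markers, of which it was the 1 called, while Pdgfrb, Flt1, Acta2 and Col1a1 had values of 0.26, 0.052, 0.032 and 0.016. Of that list Pecam1, Kdr, Tek, Col1a2, Col3a1, Lum and Rgs5 did not pass the filter on dim probes, nor did the microglia markers Itgam, P2ry12, Ctss and Ptprc. The summed linear level of the vessel and fibroblast list was 6841 to 10142 on arrays at 1 µM and 6345 to 10069 at the lower doses. Of 8 microglia markers 0 were called and the median was -0.14, with a summed level of 1081 to 1425 at 1 µM and 1184 to 1620 at the lower doses. In this list 6 values were below 0 and 2 above, and 4 of the 8 had an unadjusted p under 0.05 by limma. Cx3cr1 and C1qa had values of -0.34 ± 0.10 (adjusted p = 0.226) and -0.35 ± 0.12 (adjusted p = 0.285). Of 12 astrocyte and radial glia markers, 8 GABAergic and 13 neuron markers 0 were called, with medians of -0.094, -0.027 and -0.044. Values below 0 numbered 10, 7 and 11 in these 3 lists, so a lean below 0 was not particular to 1 cell type. Of 6 oligodendrocyte lineage markers 0 were called, 5 values were below 0 and the median was -0.079, and 3 of the 6 had an unadjusted p under 0.05 by limma. Their summed level was 1515 to 2615 at 1 µM and 1577 to 2926 at the lower doses, and Olig2, Mog, Mag and Enpp6 did not pass the filter on dim probes. The part of cell composition in the falls was not tested.

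**Figure D2:**
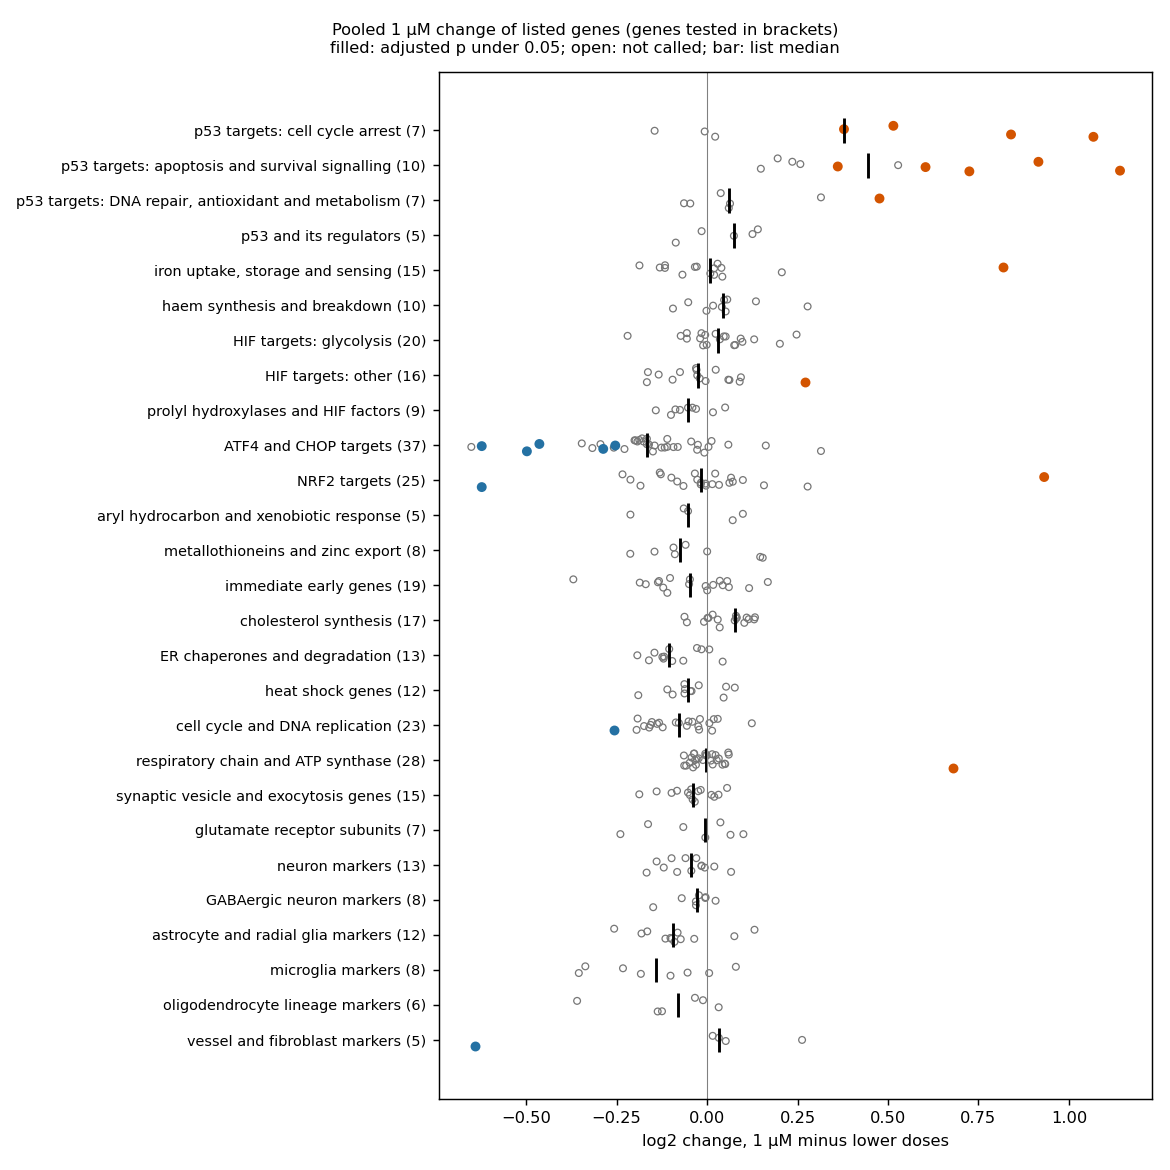
Pooled log2 change, 1 µM minus lower doses, of each tested member of 27 gene lists. Each point is a gene, filled where its adjusted p was under 0.05, and the bar is the list median. Filled points to the right are 10 p53 targets, Tfrc, Ndrg1, Ephx1 and Cox6b2, and those to the left include 5 ATF4 targets.

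The 15 largest common falls also held Ntm (-0.38 ± 0.074), Sytl2 (-0.37 ± 0.079), Triqk (-0.36 ± 0.077), Cpne4 (-0.34 ± 0.055) and Gpx7 (-0.31 ± 0.055). The remaining called genes were chosen for naming after their values were seen, as were Trp53inp1, Urah, Arrdc4, Serpinf1 and Shmt2. The remaining rises were Zfp365 (0.55 ± 0.095), Susd6 (0.38 ± 0.077), Scrn2 (0.37 ± 0.073), Rbm38 (0.30 ± 0.051), Abhd4 (0.28 ± 0.057), Pgpep1 (0.27 ± 0.052), Rida (0.26 ± 0.052), Gpnmb (0.21 ± 0.043) and Atg4d (0.20 ± 0.038). Rbm38 encodes an RNA-binding protein that acts on the Cdkn1a mRNA, and 1 of its 2 other probes gave 0.037 and the other 0.32. The remaining falls were Emp1 (-0.28 ± 0.052), Gcnt2 (-0.28 ± 0.060), Tgfbi (-0.23 ± 0.048), Sphkap (-0.23 ± 0.048), Socs2 (-0.23 ± 0.048) and Ntng1 (-0.23 ± 0.049). Of 24 other probes for called genes 0 had the opposite sign.

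Each 1 µM array was also set against the mean of the lower-dose arrays with the same replicate number and HCA status, which gave 6 differences per gene. For replicate 3 with HCA the lower side was the 0.1 µM array alone. Of the 30 rises 29 were above 0 in 6 of 6 differences, where 2.84% of all genes were, and the exception was Polk, with 5 of 6. Of the 26 falls 26 were below 0 in 6 of 6, where 2.93% of all genes were. These genes were called on the same arrays, so the counts describe how evenly the change was spread over the replicates. By the same measure 18 of the 37 ATF4 and CHOP targets were lower in 6 of 6 differences. In both HCA states, 11 of the rises and 5 of the falls had 1 µM and lower-dose arrays that did not overlap, and over all genes this was 13 (0.146%) and 5 (0.056%).

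**Figure D3:**
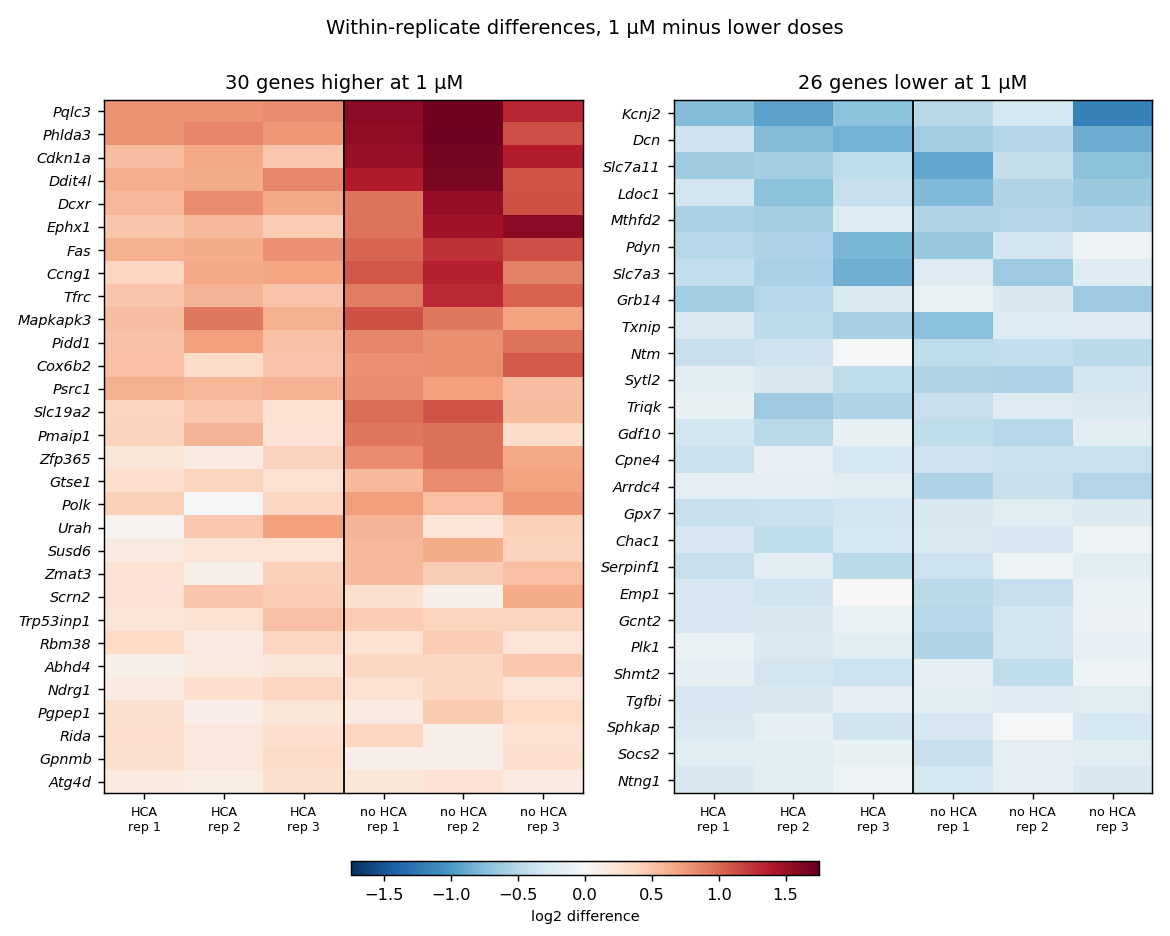
Difference in log2 intensity between the 1 µM array and the mean of the lower-dose arrays of the same replicate number and HCA state, for the 30 genes that rose and the 26 that fell. Columns are the 3 replicates with HCA and the 3 without it, and colour gives the size of the difference. Polk in replicate 2 with HCA is the 1 rise with a difference below 0, and Mapkapk3, Urah and Kcnj2 include arrays not well above background.

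The HCA states were then fitted apart, with 8 arrays with HCA and 9 without. With HCA, limma called 0 genes, with a smallest adjusted p of 0.119 and 519 genes at an unadjusted p under 0.05. From the log2 values in the authors' deposited table, the same fit called 8, and with an intensity trend and robust moderation it called 10. Without HCA 22 genes rose (0.247%) and 7 fell (0.0785%), and 20 of these 29 were also called in the pooled fit. The common rises were larger without HCA for 25 of 28 genes, with a median of 0.41 with HCA and 0.78 without it. The common falls were larger without HCA for 11 of 23, with medians of -0.35 and -0.36. Across all genes, which are not independent replicates, Pearson's r between the changes with and without HCA was 0.27 and Spearman's rho 0.21.

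The difference between the states was tested as an interaction, and 1 gene was called, Cdkn1a, or 0.0112% of those tested. Its 1 µM change was 0.57 ± 0.085 with HCA and 1.52 ± 0.073 without HCA, a difference of -0.95 ± 0.10 (adjusted p = 0.00175). The interaction called 0 genes without the replicate numbers in the fit, with 0 µM alone or 0.1 µM alone as the lower dose, and with the arrays of any 1 replicate number left out. Its lower-dose level was 9.51 to 9.95 with HCA and 8.72 to 9.30 without it. At an unadjusted p under 0.05 the interaction included 14 of the 28 common rises and 0 of the 23 common falls, against 3.83% of all genes. Phlda3 changed by 0.80 ± 0.096 with HCA and 1.46 ± 0.10 without HCA (limma interaction over 17 arrays, unadjusted p = 2.49e-04, adjusted p = 0.395). For Tfrc the values were 0.53 ± 0.083 and 1.08 ± 0.078 (limma interaction, adjusted p = 0.395). For Mthfd2 they were -0.49 ± 0.095 and -0.52 ± 0.081, and the interaction was 0.051 (unadjusted p = 0.697 by limma).

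For Sesn2, a target of both p53 and ATF4 whose product restrains mTORC1 under stress, the values ran opposite ways in the 2 states. With HCA it had 7.42, 7.72 and 7.53 at 1 µM, against 8.06 and 7.94 at 0 µM and 7.72, 7.68 and 7.79 at 0.1 µM. Without HCA it had 6.91, 7.07 and 6.59 at 1 µM, against 5.77, 5.98 and 6.34 as lowest, median and highest at the lower doses. Its change was -0.27 ± 0.12 with HCA (adjusted p = 0.866) and 0.84 ± 0.11 without HCA (adjusted p = 0.026). The pooled value of 0.31 ± 0.16 did not pass (adjusted p = 0.595), nor did the interaction of -1.10 ± 0.17 (adjusted p = 0.0576).

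**Figure D4:**
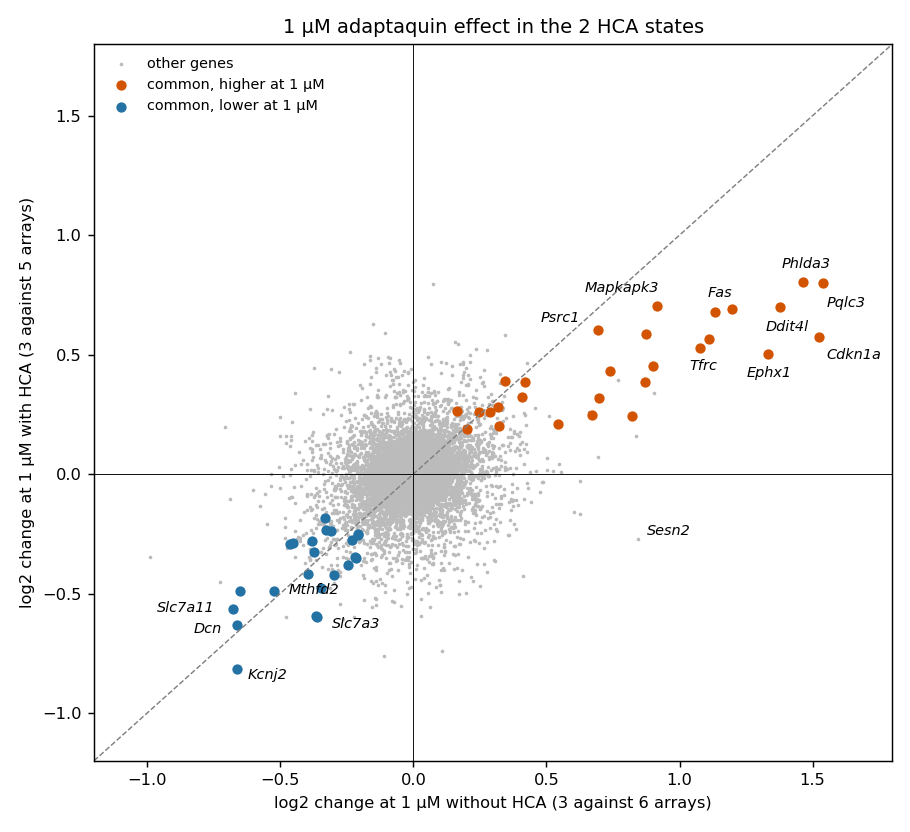
Log2 change at 1 µM with HCA (vertical axis, 3 arrays against 5) and without HCA (horizontal axis, 3 against 6) for 8922 genes. Orange and blue points are the 28 common rises and 23 common falls, grey points are all other genes, and the dashed line marks equal change. Common rises lie mostly below the line, with medians of 0.41 with HCA and 0.78 without it, and common falls lie along it.

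The lower side pools 0 and 0.1 µM, so the doses were also fitted apart. Between 0.1 and 0 µM limma called 0 genes, with 276 at an unadjusted p under 0.05 and a smallest adjusted p of 0.999, and the count was 0 in every alternative run. Against 0 µM alone, 18 genes rose and 6 fell at 1 µM, and against 0.1 µM alone 15 rose and 9 fell. These contrasts share the 1 µM arrays. All 30 rises were above 0 and all 26 falls below 0 against each lower dose. Phlda3 was higher by 1.22 against 0 µM and by 1.08 against 0.1 µM, Cdkn1a by 1.13 and 1.02, Tfrc by 0.80 and 0.83, and Slc7a11 lower, with -0.60 and -0.64. Cox6b2 had 0.90 and 0.51, and its 0.1 minus 0 µM value was 0.39 (unadjusted p = 0.0033). Ndrg1 had 0.19, which did not pass, and 0.33, which did, and its 0.1 minus 0 µM value was -0.14 (unadjusted p = 0.0235).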

How the data were processed

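Total RNA from 18 samples of cultured neurons was labelled as biotinylated cRNA and hybridised to Illumina bead arrays, per the labels' protocols. The authors deposited probe intensity, not normalized between arrays, with detection p-values beside them. The authors also deposited a table of log2 values, which matched a quantile normalization of those intensities to within 5e-09 (median 7.37 on every array) and served as an alternative. The scanner software is not given in the sources used here.

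The function neqc (limma 3.58.1, R 4.3.3) estimated the background from the detection p-values, added an offset of 16 and quantile-normalized all 18 arrays. There were 25697 probes, and 23978 had 1 symbol, from GEO's platform annotation matched to RefSeq by gene identifier (23962 matched), and 1719 had none. Probes were kept that 2 or more of the 17 arrays detected (p-value under 0.01), and the brightest probe stood for each gene, leaving 8922 genes. Linear models were fitted with lmFit and moderated with eBayes (12 residual and 3.45 prior degrees of freedom in the pooled fit), with two-sided tests and Benjamini-Hochberg adjustment at 0.05. A probe not well above background on any array of a group was given as a bound, and with no fold where the bound was under 1.

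Replicate numbers come from the titles. In residuals from the group means, 40 pairs of arrays with the same number correlated at 0.238 to 0.626 and 80 pairs with different numbers at -0.461 to 0.0614, so the numbers were kept as a block. In simulated data on the pooled design with 8922 genes, 52.2% of changes of 0.3, 89.6% of 0.5 and 97% of 1 log2 unit were recovered. The simulation changed 67, 67 and 66 genes by these sizes, alike in both HCA states and with independent normal noise. Recovery in the data may be lower. The members and the 27 gene lists were chosen with earlier results of these data known. The text names the 15 largest common rises and falls, up to 4 called members per list, fixed genes of the p53, ATF4, HIF, NRF2 and iron responses, the called genes of the interaction and, chosen after their values were seen, the remaining called genes. The number of arrays limits the precision. The alternatives changed the block, background, normalization, filter, probe choice, lower doses, model, moderation and array weights, and left out arrays.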

Additional observations from a re-analysis of the deposited data

Results flagged for a closer look

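Of 74 items, 4 had 1 array at 1 µM apart from the other 5 by Dixon's ratio, after adjustment for HCA and replicate number, and chance marks about 5% of such groups. Cpne4 was high with HCA in replicate 2, at 8.125 against 7.936 to 7.991. Ndrg1 was low with HCA in replicate 1, at 10.01 against 10.13 to 10.19. Chac1 was high without HCA in replicate 3, at 10.2 against 9.952 to 10.04, and Socs2 was low without HCA in replicate 1, at 11.12 against 11.28 to 11.34.

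The 1 µM change of Cdkn1a differed between the HCA states in the interaction test, by -0.945 (adjusted p = 0.00175), a call that was lost without the replicate numbers, with either lower dose alone, and with any 1 replicate number left out. Sesn2 was lower in 3 of 3 replicates with HCA and higher in 3 of 3 without it, a difference of -1.1 (adjusted p = 0.0576). Ddit4, another inhibitor of mTORC1 signalling, ran the same opposite ways in 3 of 3 and 3 of 3, by -0.394 (adjusted p = 0.592). The last 2 differences did not pass the adjustment.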

How the results depend on the processing

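All 56 called genes kept their direction in each alternative in which they were tested (54 were tested when a probe had to be detected on at least 6 of 17 arrays). The number called changed more. Without the replicate block the pooled fit called 18 (14 higher, 4 lower), all common and all among the 56, namely Pqlc3, Phlda3, Cdkn1a, Ddit4l, Dcxr, Ephx1, Ccng1, Tfrc, Mapkapk3, Pidd1, Cox6b2, Psrc1, Slc19a2, Rbm38, Kcnj2, Dcn, Slc7a11 and Ldoc1. That fit called 13 without HCA, 0 in the interaction, 7 against 0 µM and 13 against 0.1 µM. With median scaling 31 genes were called (17 higher, 14 lower) and 29 were common, and the median of all genes was -0.043. With 6 group coefficients 37 were called (25 higher, 12 lower) and 33 were common. With 0 µM alone as the lower dose 12 were called (11 higher, 1 lower), all 12 common, 2 without HCA and 0 in the interaction, and with 0.1 µM alone 14 (11 higher, 3 lower), all 14 common, 0 and 0. These fits hold fewer arrays.

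With an intensity trend and robust moderation, 47 were called without HCA, 10 with HCA, 3 in the interaction, 39 against 0 µM and 52 against 0.1 µM. With HCA the authors' table gave 8 and no background correction 7. Against 0.1 µM both gave 52, and against 0 µM the authors' table gave 37. Array weights gave 39 against 0 µM and 41 against 0.1 µM. The interaction called 2 with the outlier included and 2 with detection on at least 6 arrays. The cause of these shifts was not tested.

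Leaving out 1 array at a time, the pooled fit called 25 to 52 and 25 to 47 were common. These totals include genes not among the 56. Of the 26 falls 9 to 20 were kept, and of the 30 rises 15 to 30. The call was lost in 16 of 17 runs for Ntng1 and in 15 for Sytl2, Triqk, Gcnt2 and Tgfbi. It was lost in 13 for Plk1 and Shmt2, 12 for Gpnmb and 11 for Txnip, but in 0 for Dcn, Slc7a11, Ldoc1 and Mthfd2. The pooled count was 25, 29 and 36 without 1 µM replicates 1, 2 and 3 without HCA, 36 and 37 without 1 µM replicates 1 and 3 with HCA, and 37 without replicate 3 of 0.1 µM without HCA. Common changes numbered 25 and 28 without 1 µM replicates 1 and 2 without HCA, and 26 and 31 without 1 µM replicates 1 and 3 with HCA. The fit without HCA called 13, 9 and 18 without 1 µM replicates 1, 2 and 3, 19 and 17 without 0 µM replicates 1 and 2, and 19 without 0.1 µM replicate 1. Against 0 µM 14 were called without 1 µM replicate 1 without HCA, 15 without any single 0 µM array without HCA, and 13 without 0 µM replicate 2 with HCA. The ranges were 9 to 29 without HCA, 1 to 2 in the interaction, 13 to 28 against 0 µM and 18 to 33 against 0.1 µM. Leaving out all arrays of 1 number gave 11 to 27 called and 11 to 27 common, 1 to 14 without HCA, 0 in the interaction, 0 to 6 against 0 µM and 1 to 5 against 0.1 µM. With HCA, and between 0.1 and 0 µM, these fits called 0. Signal over background limits Mapkapk3, Urah, Kcnj2, Trib3, Pmaip1 and Fas.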

Other observations

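Gene groups of other stress and neuronal functions held 0 called genes at 1 µM. Of 13 tested genes of endoplasmic reticulum chaperones and degradation, 11 values were below 0 and the median was -0.10. The 19 immediate early genes of neuronal activity had a median of -0.047, with 6 of 19 above 0 with HCA and 11 of 19 without it. The 17 cholesterol synthesis genes had 14 values above 0 and a median of 0.076. The 8 genes of metallothioneins and zinc export had a median of -0.074, where Mt1 had 0.15 ± 0.051 (adjusted p = 0.302). The 12 heat shock genes had a median of -0.054, the 15 synaptic vesicle genes -0.040, the 7 glutamate receptor subunits -0.0048 and the 5 genes listed for the xenobiotic response -0.053. The last 5 were Nfe2l2, Ahrr, Lrp5, Cyp1b1 and Nqo1, 1 of them detected on all 17 arrays, and their median was the value of Lrp5. Lrp5 is not a gene of that response, so the median does not describe it. Cyp1a1, Cyp1a2, Tiparp and Ahr did not pass the filter on dim probes, so this list covers little of that response.

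Nupr1, a stress-induced chromatin protein gene, had a log2 change of -0.35 ± 0.097 with HCA and -0.99 ± 0.10 without HCA. The difference between the states was not called in the interaction test.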
